A study of Mus musculus with 6 samples.

Results

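Transcripts of 10 basement membrane genes were compared between *Tet3*-deleted and control cardiac fibroblasts. The genes were *Col4a1* and *Col4a2* (type IV collagen), *Lama2*, *Lama4*, *Lama5*, *Lamb1* and *Lamc1* (laminin chains), *Nid1* and *Nid2* (nidogens) and *Hspg2* (the proteoglycan perlecan). They were chosen by symbol, and all 10 were found among the 22063 genes of the deposited table. The 6 libraries came from primary cardiac fibroblasts of mice with floxed *Tet3* alleles on a C57BL/6J background. In 3 libraries (GFP) the cells had received an adenovirus coding for green fluorescent protein, and in 3 (CRE) an adenovirus coding for Cre recombinase, which excises the DNA between loxP sites. TGF-β, which drives fibroblasts towards matrix-producing myofibroblasts, was given in all 6. There were no unstimulated cells among these libraries, and no group received Cre without floxed alleles, so loss of *Tet3* and the presence of Cre cannot be told apart. Nothing in the labels says that the libraries came from separate animals, so p-values measure the spread between these libraries only.

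A basement membrane is a thin sheet of matrix that underlies endothelium and epithelium and surrounds muscle cells, fat cells and nerves. Laminins, trimers of an α, a β and a γ chain, form the first network on the cell surface, where integrins and dystroglycan hold them. Type IV collagen, in its common form a trimer of α1 and α2 chains, forms a separate covalent network, and nidogens and perlecan bridge the networks. In the heart, fibroblasts are a source of these proteins for the sheets around cardiomyocytes and capillaries. TET3 oxidises 5-methylcytosine, a base found mainly at CpG dinucleotides.

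The promoters of the collagen pair are shown first because *Col4a1* and *Col4a2* lie head to head and changed together. *Col4a1* spans chromosome 8 from 11198423 to 11312826 (minus strand) and *Col4a2* lies on the plus strand, from 11312805 to 11449287 (GRCm38, GENCODE M21). Their annotated starts are 21 bases apart, and their first exons share 22 bases on opposite strands. The windows from 250 bases before to 50 bases into each gene (RefSeq, GRCm38.p6), chr8:11312777-11313076 on the minus strand and chr8:11312555-11312854 on the plus strand, share 78 bases, which are printed in capitals.
Col4a1: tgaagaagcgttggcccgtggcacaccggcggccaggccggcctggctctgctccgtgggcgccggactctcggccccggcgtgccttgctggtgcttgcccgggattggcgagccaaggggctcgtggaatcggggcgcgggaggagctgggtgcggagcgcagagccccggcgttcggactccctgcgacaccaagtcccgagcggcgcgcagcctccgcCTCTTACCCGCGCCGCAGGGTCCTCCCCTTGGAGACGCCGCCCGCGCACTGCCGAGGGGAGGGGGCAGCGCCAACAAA
Col4a2: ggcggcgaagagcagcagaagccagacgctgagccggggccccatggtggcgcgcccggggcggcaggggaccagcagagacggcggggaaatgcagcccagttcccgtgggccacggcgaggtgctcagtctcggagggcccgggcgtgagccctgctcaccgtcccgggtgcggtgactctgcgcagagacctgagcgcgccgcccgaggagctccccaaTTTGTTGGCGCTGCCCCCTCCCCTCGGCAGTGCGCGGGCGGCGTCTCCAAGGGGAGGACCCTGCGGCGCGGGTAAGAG

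The window of *Hspg2* (chr4:137468553-137468852, plus strand) is shown because this gene fell in every fit run. Each CG is in capitals.
Hspg2: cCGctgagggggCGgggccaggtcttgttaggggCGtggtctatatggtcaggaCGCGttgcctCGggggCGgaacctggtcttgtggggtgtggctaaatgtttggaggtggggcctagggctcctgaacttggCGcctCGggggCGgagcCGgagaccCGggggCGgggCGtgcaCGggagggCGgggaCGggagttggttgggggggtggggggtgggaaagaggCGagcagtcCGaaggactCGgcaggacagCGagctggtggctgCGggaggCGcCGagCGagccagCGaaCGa

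The reference held such a window for 7 of the 10 genes. That of *Lama2* starts 2816 bases inside the GENCODE gene and was left out, and the other 6 start at most 59 bases from it. *Hspg2* had 27 CpG dinucleotides, where the median over 32851 promoters was 7. *Col4a1* had 37, a number reached by 5.58% of all promoters, *Col4a2* had 33, *Lama5* 24, *Nid1* 20 and *Lamb1* 18. The GC box GGGCGG, searched on both strands, was present in 6 of the 6 windows and in 35.7% of all promoters. The SMAD-type motif CAGAC was present in 3 of the 6 and in 49.6% of all, and the TEAD-type motif GGAATG in 1 of the 6, *Nid1*, and in 14.7% of all. These are matches of letters and were not tested as binding sites.

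Counts per gene totalled between 17002126 and 20343590 per library. The targeted gene *Tet3* had CPM (counts scaled to the total of a library after TMM normalisation) of 64.9, 54.4 and 52.0 in GFP and 34.5, 35.9 and 33.6 in CRE, a log2 fold change of -0.72 (SE 0.08), so that 60.8% of its counts remained in the libraries labelled knockout. GFP replicate 1 stood apart on the second principal component, which carried 10.3% of the variance. Fibroblast markers summed to between 27303 and 28426 CPM in GFP and between 16512 and 17916 CPM in CRE, and 6 of 7 were lower in CRE. Most of this sum came from the collagen genes *Col1a1* and *Col1a2*, at means of 13729 and 11568 CPM in GFP. *Tcf21* and *Thy1* were low, at means of 36.1 and 26.4 CPM in GFP and 10.4 and 24.7 CPM in CRE. Transcripts that serve as markers of other cell types were also counted. All 10 endothelial markers were tested, none was at 0, and 8 were lower and 0 higher, with sums between 407.6 and 442.6 CPM in GFP and between 210.9 and 240.0 CPM in CRE. Of 9 pericyte and smooth muscle markers 5 were lower and 1 higher (119.7 to 129.2 CPM in GFP, 94.0 to 109.2 CPM in CRE). Macrophage markers summed to between 58.0 and 65.99 CPM in GFP and between 34.4 and 37.7 CPM in CRE, with 6 of 7 tested and 3 of those lower. Of 8 cardiomyocyte markers only *Nppb* had enough counts to be tested. It was higher in CRE, with 2, 1 and 3 counts in GFP and 28, 21 and 13 in CRE, and *Myh6* was at 0 in every library. Schwann cell markers (3 of 5 tested, 1 lower) summed to at most 11.7 CPM, and epicardial and mesothelial markers (4 of 5 tested, 3 higher and 1 lower) to at most 10.2 CPM. Whether such cells were present, and their part in the results below, was not tested. In bulk RNA fewer cells of a type and less RNA per cell cannot be told apart.

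All 10 genes passed the filter on low counts. In CRE libraries 9 were lower, 0 were higher, and *Nid2* did not pass the threshold (edgeR quasi-likelihood test, adjusted p under 0.05 over 12862 genes). Of all tested genes, 51.2% passed, 25.7% lower and 25.5% higher. The same 9 genes had all 3 CRE libraries below all 3 GFP libraries, against 29.6% of all tested genes (30.0% lay entirely above). The median log2 fold change of the 10 genes was -0.33, beside 0.01 over all tested genes. The 10 genes summed to 1.17% ± 0.066 (SD, n = 3) of all reads counted in GFP and 0.964% ± 0.025 (SD, n = 3) in CRE.

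**Figure D1:**
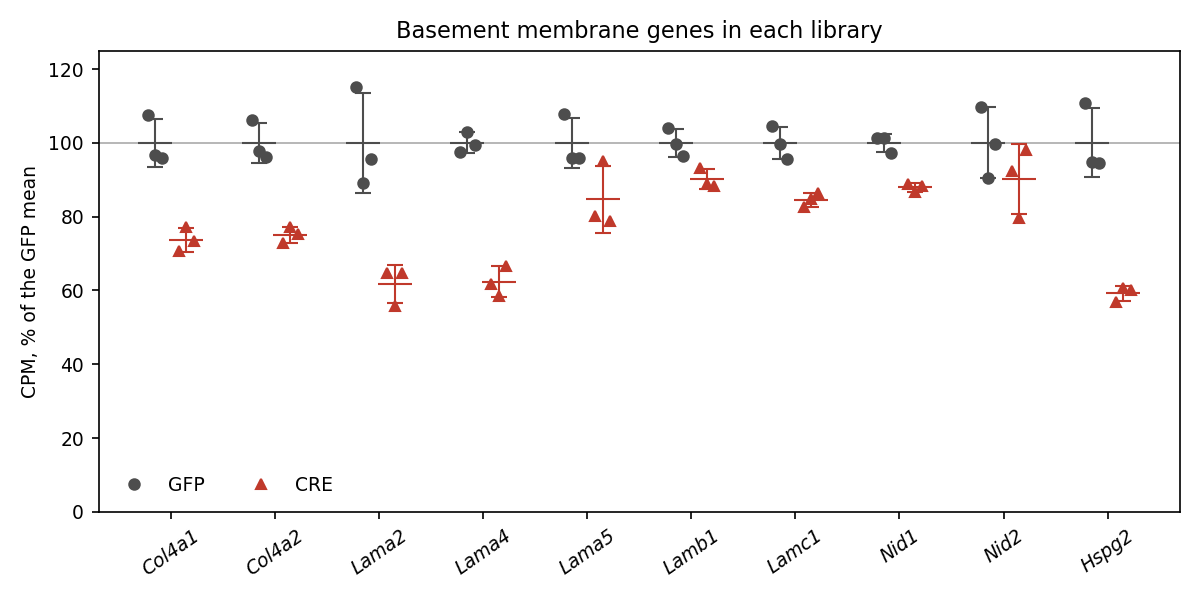
Normalised counts (CPM) of the 10 genes in each library, as a percentage of the GFP mean of that gene. Points are libraries (grey circles GFP, red triangles CRE), and bars are the mean and SD of 3 libraries. *Hspg2*, *Lama2* and *Lama4* lay near 60% of the GFP mean in CRE, the collagen pair near 75%, and *Nid2* overlapped.

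The other 8 genes lie apart from each other (GRCm38): *Lamc1* at chr1:153218922-153332786, *Lama5* at chr2:180176373-180225859, *Hspg2* at chr4:137468769-137570630, *Lama2* at chr10:26980036-27619758, *Lama4* at chr10:38965515-39110188, *Lamb1* at chr12:31265234-31329644, *Nid1* at chr13:13437551-13512269 and *Nid2* at chr14:19751265-19811787. Per length, type IV collagen was by far the most abundant. FPKM (fragments per kilobase of transcript, scaled to the depth of the library) averaged 749.8 ± 51.6 (SD, n = 3) for *Col4a1* and 375.2 ± 19.6 for *Col4a2* in GFP libraries, at the 99.6th and 98.8th percentile of tested genes. *Hspg2* (154 ± 14.4) and *Nid1* (148 ± 3.36) followed, and their ranges overlapped. Below them came *Lamb1* (122 ± 4.55), *Lamc1* (104 ± 4.37), *Lama4* (94.5 ± 2.75), *Lama2* (22.5 ± 3.04), *Nid2* (12.3 ± 1.17) and *Lama5* (2.81 ± 0.19), each with a range clear of its neighbours. The order was the same in CRE libraries except for *Hspg2*. Its level of 102 ± 3.94 put it below *Nid1* (145 ± 1.30) and *Lamb1* (123 ± 3.24), with a range that overlapped that of *Lamc1* (98.4 ± 2.49). No gene lost its expression: *Col4a1* remained at 610.1 ± 35.5 FPKM in CRE libraries.

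**Figure D2:**
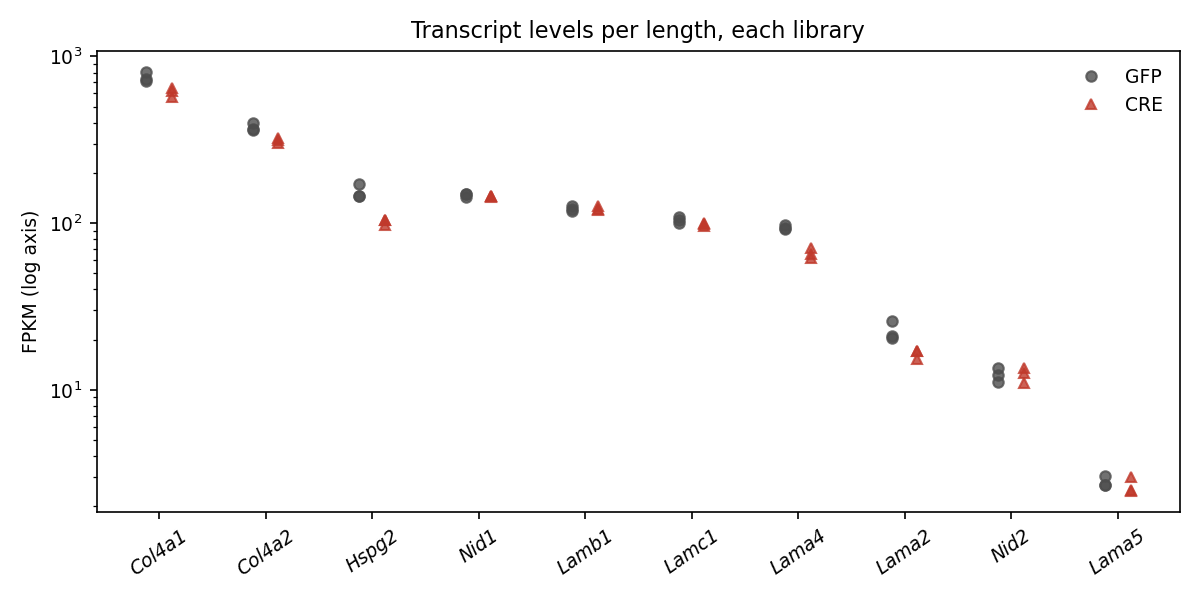
Transcript level of each gene per length (FPKM, log axis), ordered by the GFP mean. Each point is a library (grey circles GFP, red triangles CRE). Levels ran from 2.48 FPKM (*Lama5*) to 809 FPKM (*Col4a1*), and *Hspg2* fell from beside *Nid1* to beside *Lamc1*.

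Among the network formers, both type IV collagen chains fell by about the same amount. *Col4a1* had 4402, 3957 and 3925 CPM in GFP replicates 1, 2 and 3 and 2895, 3158 and 3004 CPM in CRE replicates 1, 2 and 3. The highest CRE library was below the lowest GFP library, and the mean was down to 73.7% of GFP. The log2 fold change was -0.44 (SE 0.05), with an edgeR adjusted p of 8.09e-05. *Col4a2* had 2718, 2504 and 2462 CPM in GFP and 1863, 1974 and 1926 CPM in CRE, a mean of 75.0% of GFP. Its log2 change was -0.41 (SE 0.05, edgeR adjusted p of 5.41e-05). GFP replicate 1 was the highest library for both, and the changes were -0.38 and -0.37 without it. The pair kept nearly the same proportion to each other. The FPKM ratio of *Col4a1* to *Col4a2* was 1.997 ± 0.032 (SD, n = 3) in GFP and 1.94 ± 0.048 (SD, n = 3) in CRE, a log2 difference of -0.045 (-0.025 without CRE replicate 1 or on counts in place of FPKM). The groups only just did not overlap (lowest GFP library 1.976, highest CRE library 1.975), and an exact two-sided permutation test gave p = 0.1, the smallest that 3 libraries against 3 allow (0.14 adjusted over the 7 pairs of genes compared).

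The laminin α chains decide which receptors a laminin binds. *Lama4*, whose chain is typical of vessel walls and mesenchymal cells, had 589.6, 623 and 601 CPM in GFP and 374, 353 and 404 CPM in CRE. The groups were well apart, with CRE at 62.3% of GFP on average. This was -0.68 on the log2 scale (SE 0.05, edgeR adjusted p of 5.29e-06). *Lama2*, whose chain is the main one around muscle fibres, had 242, 187 and 201 CPM in GFP and 136, 117 and 136 CPM in CRE. GFP replicate 1 was the highest, and the groups stayed apart. The log2 fold change was -0.69 (SE 0.09) with an edgeR adjusted p of 0.000145, and -0.58 without GFP replicate 1. On log2(FPKM + 1) values it was smaller, at -0.42. *Lama5*, whose chain is found widely in epithelial and endothelial sheets, was low, with 504 to 625 counts per library. Its CPM were 36.5, 32.5 and 32.5 in GFP and 27.1, 32.2 and 26.7 in CRE, so CRE replicate 2 lay just under the GFP libraries. The log2 fold change of -0.24 (SE 0.08) had an edgeR adjusted p of 0.0368. It did not pass without GFP replicate 1 (adjusted p of 0.0958), GFP replicate 3 (0.0550), CRE replicate 1 (0.129) or CRE replicate 3 (0.134).

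Levels of the α chains relative to each other were compared within libraries. *Lama4* made up between 76.0% and 80.9% of the summed FPKM of the 3 chains in GFP and between 76.9% and 78.3% in CRE. The *Lama4* to *Lama2* ratio was 4.26 ± 0.643 (SD, n = 3) in GFP and 3.997 ± 0.155 (SD, n = 3) in CRE, and these ranges overlapped (exact permutation p = 0.5, adjusted p = 0.583). Its log2 difference of -0.08 was -0.21 without GFP replicate 1 and 0.01 without GFP replicate 2 or on counts in place of FPKM. *Lama5* was higher relative to both, from 0.126 ± 0.008 to 0.162 ± 0.029 of *Lama2* and from 0.030 ± 0.003 to 0.041 ± 0.007 of *Lama4*, with no overlap (exact permutation p = 0.1 for each, adjusted p = 0.14). The log2 difference of the first ratio was 0.36, and 0.22 without CRE replicate 2. That of the second was 0.44, and 0.31 without CRE replicate 2.

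*Lamb1* and *Lamc1*, the β1 and γ1 chains that are shared by most laminins, changed less than *Lama4* and *Lama2*. *Lamb1* had 772, 739.7 and 716 CPM in GFP and 693, 660.1 and 657 CPM in CRE, and the log2 fold change was -0.15 (SE 0.04, edgeR adjusted p of 0.0186). The groups did not overlap, but the threshold was missed without CRE replicate 2 (adjusted p of 0.0693) or CRE replicate 3 (0.0709). *Lamc1* had 876, 837 and 803 CPM in GFP and 693, 710.4 and 724 CPM in CRE, a log2 fold change of -0.24 (SE 0.04, edgeR adjusted p of 0.00126). The *Lamb1* to *Lamc1* ratio was 1.17 ± 0.006 (SD, n = 3) in GFP and 1.25 ± 0.065 (SD, n = 3) in CRE, with no overlap (exact permutation p = 0.1, adjusted p = 0.14). Its log2 difference was 0.09, and 0.05 without CRE replicate 1. Relative to γ1, *Lama4* and *Lama2* were lower in CRE. *Lama4* stood at 0.910 ± 0.054 of *Lamc1* in GFP and at 0.670 ± 0.039 in CRE, and *Lama2* at 0.216 ± 0.022 and 0.168 ± 0.012 (SD, n = 3), neither pair of groups overlapping. *Lama5* stood at 0.027 of *Lamc1* in both groups. The ratios to *Lamc1* other than those of *Lamb1* and *Hspg2* were chosen after the values had been seen.

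Among the linkers, perlecan fell by more than the nidogens. *Hspg2*, whose product carries heparan sulphate chains that bind growth factors, had 2562, 2191 and 2185 CPM in GFP and 1317, 1401 and 1393 CPM in CRE. The lowest GFP library was well above the highest CRE library, and CRE averaged 59.2% of GFP. Its log2 fold change of -0.76 (SE 0.06, edgeR adjusted p of 7.00e-06) lay at the 7.59th percentile of all tested genes, and it was -0.68 without GFP replicate 1. Its order with *Lama2* and *Lama4* turned as single libraries were left out. The *Hspg2* to *Lamc1* ratio was 1.48 ± 0.09 (SD, n = 3) in GFP and 1.04 ± 0.02 (SD, n = 3) in CRE, a log2 difference of -0.51 with no overlap (exact permutation p = 0.1, adjusted p = 0.14). *Nid1*, which binds both laminin γ1 and type IV collagen, had 964, 966 and 926 CPM in GFP and 846, 825 and 840.4 CPM in CRE. The log2 fold change was -0.19 (SE 0.04, edgeR adjusted p of 0.00285). *Nid2*, its less abundant paralog, had 69.4, 57.2 and 63.1 CPM in GFP and 58.5, 50.4 and 62.1 CPM in CRE. The groups overlapped, and the log2 fold change was -0.15 (SE 0.09, edgeR adjusted p of 0.179). It was -0.08 without GFP replicate 1 and -0.06 without CRE replicate 2. The *Nid1* to *Nid2* ratio was 12.1 ± 1.24 (SD, n = 3) in GFP and 11.8 ± 1.15 (SD, n = 3) in CRE (exact permutation p = 0.7), and its log2 difference of -0.03 ran from -0.11 to 0.05 as each library was left out. Of the *Nid2* exon bases 8.45% overlap *Rtraf* on the other strand, and whether counting used the strand is not stated.

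How libraries were scaled split the 10 genes into those that fell under every scaling and those that did not. Scaling by library size alone moved the median of all genes by 0.16 on the log2 scale. *Hspg2*, *Lama2*, *Lama4*, *Col4a1* and *Col4a2* were then still lower, with log2 fold changes of -0.59, -0.53, -0.52, -0.28 and -0.25, and these 5 passed in each of the 15 alternative fits. With library size alone 5 of the 10 were lower and 0 higher, where 16.2% of all tested genes were lower and 43.0% higher. On log2(FPKM + 1) values the same 5 were lower and 0 higher, where 14.9% of all genes were lower and 38.7% higher. *Lamc1*, *Lama5* and *Nid1* were then at -0.08, -0.08 and -0.02 with library size alone and did not pass, and *Lamb1* and *Nid2* were both at 0.01. The calls of *Lamc1*, *Lama5*, *Nid1* and *Lamb1* thus depended on the scaling, which the ratios within a library do not use. By the study's own cut (fold change above 1.5 or below 0.66 at an unadjusted p of 0.05), *Hspg2*, *Lama2* and *Lama4* were lower and 0 were higher, where 10.3% of all genes were lower and 7.52% higher.

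**Figure D3:**
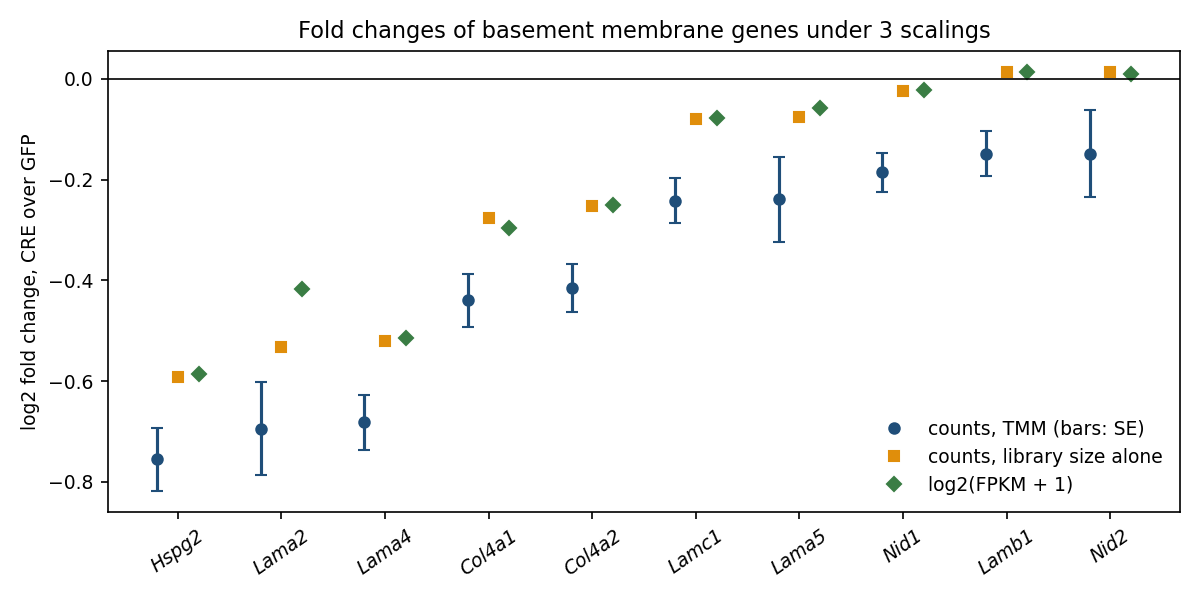
Log2 fold change (CRE over GFP) of each gene on counts scaled by TMM (blue circles, bars are the SE), on counts scaled by library size alone (orange squares) and on log2(FPKM + 1) values (green diamonds). The 5 genes on the left stayed below 0 at -0.25 or lower, and *Lamb1* and *Nid2* crossed 0.

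Of 10 other type IV collagen and laminin chains 9 were tested, 3 were lower and 3 higher, and the median log2 fold change was -0.01. Over all tested genes the shares were 25.7% lower and 25.5% higher. The median of these chains was 0.15 with library size alone and 0.06 on log2(FPKM + 1) values, where that of all genes was 0.17 and 0.13. *Lamb2*, the β2 chain of vascular and neuromuscular laminins, had 215, 218 and 205 CPM in GFP and 127, 128 and 131 CPM in CRE. Its log2 fold change of -0.72 (SE 0.04, edgeR adjusted p of 1.08e-06) was close in size to those of *Lama4* and *Lama2*. Relative to *Lamb1* it stood at 0.394 ± 0.022 in GFP and at 0.264 ± 0.008 in CRE (SD, n = 3), with no overlap (exact permutation p = 0.1, chosen after the values had been seen). *Col4a5* and *Col4a6*, neighbours on the X chromosome that also lie head to head, with starts 1309 bases apart, did not keep their proportion. *Col4a6* fell by 0.47 on the log2 scale (SE 0.07, edgeR adjusted p of 0.000315) from 37.7 ± 1.33 CPM (SD, n = 3). *Col4a5*, at 447 ± 11.7 CPM, had a log2 fold change of -0.12 (SE 0.04, edgeR adjusted p of 0.0352). That call was lost without GFP replicate 2 or 3 or any 1 CRE library (adjusted p between 0.0819 and 0.112), and its direction turned under library size alone (0.05). The *Col4a6* to *Col4a5* ratio was 0.076 ± 0.002 in GFP and 0.059 ± 0.004 in CRE (SD, n = 3), again with no overlap (exact permutation p = 0.1, chosen after the values had been seen).

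Among the higher chains were *Lama1* and *Lamb3*, both chosen after their values had been seen. *Lama1*, the α1 chain of embryonic laminin, had 65.8, 48.1 and 53.0 CPM in GFP and 69.9, 66.4 and 64.9 CPM in CRE, so the groups overlapped, and its log2 fold change was 0.27 (SE 0.10, edgeR adjusted p of 0.0359). That call was lost without GFP replicate 2 or 3 or any 1 CRE library (adjusted p between 0.0567 and 0.117). The log2 fold change ran from 0.18 without GFP replicate 2 to 0.43 with library size alone. Against *Lama2*, *Lama1* went from 0.245 ± 0.009 to 0.453 ± 0.031 (SD, n = 3), with no overlap (exact permutation p = 0.1). *Lamb3* had only 5, 8 and 7 counts in GFP and 46, 36 and 14 in CRE.

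**Figure D4:**
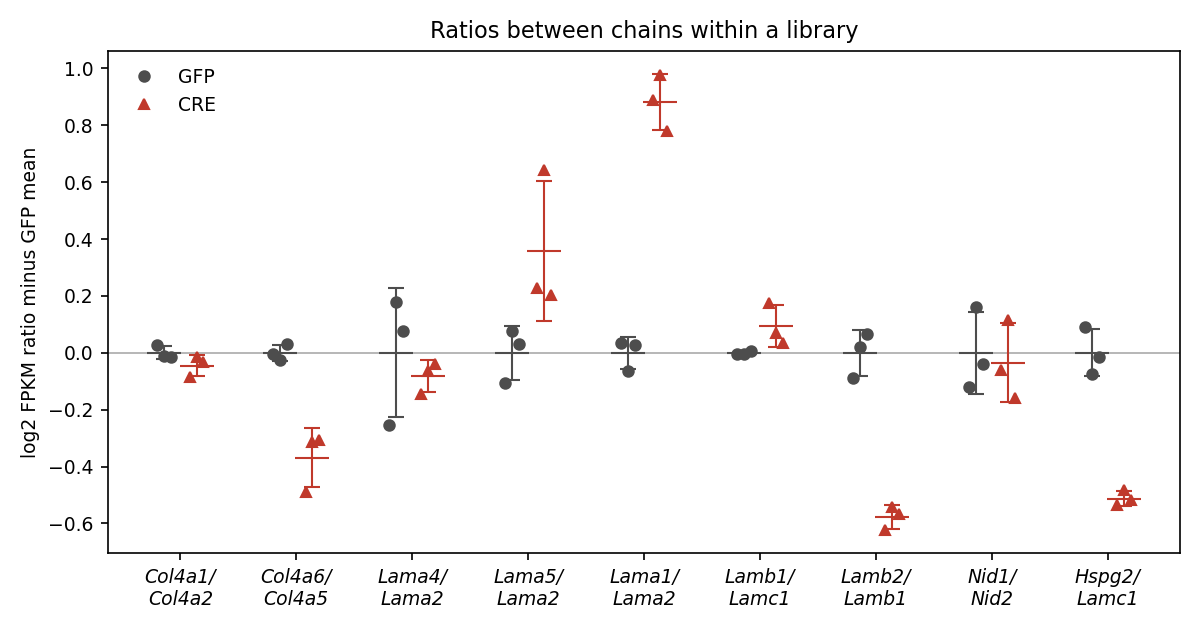
FPKM ratio of gene pairs within each library, as log2 after subtracting the GFP mean of that pair. Points are libraries (grey circles GFP, red triangles CRE), and bars are the mean and SD of 3 libraries. *Col4a1*/*Col4a2*, *Lama4*/*Lama2* and *Nid1*/*Nid2* had CRE means within 0.1 of the GFP mean with all libraries (*Lama4*/*Lama2* -0.21 without GFP replicate 1), while *Hspg2*/*Lamc1* and *Lamb2*/*Lamb1* fell by 0.51 and 0.58 and *Lama1*/*Lama2* rose by 0.88.

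Of 19 other basement membrane components 16 were tested, 9 were lower and 4 higher, and the median log2 fold change was -0.45 (-0.29 with library size alone and -0.18 on log2(FPKM + 1) values, where all genes were at 0.17 and 0.13). Of all tested genes 25.7% were lower and 25.5% higher. *Col15a1*, a collagen that anchors basement membranes to the stroma, fell from 192 ± 22.6 to 70.0 ± 5.31 CPM (SD, n = 3), which is -1.46 on the log2 scale (SE 0.09, edgeR adjusted p of 8.03e-07). *Smoc1*, a calcium-binding protein of the SPARC family, fell from 64.1 ± 1.49 to 25.7 ± 1.40 CPM (-1.32, SE 0.06), and *Npnt*, a ligand of integrin α8, from a range of 13.9 to 16.7 CPM to one of 6.18 to 8.45 CPM (-1.05, SE 0.13). In the other direction, *Ntn4*, a netrin that disrupts laminin networks, had 52.6, 54.0 and 50.6 CPM in GFP and 109.7, 89.2 and 91.1 CPM in CRE. Its log2 fold change was 0.88 (SE 0.08, edgeR adjusted p of 9.54e-06). *Agrn*, the heparan sulphate proteoglycan agrin, rose from a range of 164 to 190.1 CPM to one of 268 to 298 CPM (0.65, SE 0.06), opposite to perlecan. *Tinagl1* rose from 79.3 ± 3.86 to 106.6 ± 16.8 CPM (0.43, SE 0.09). The 6 genes named here passed in each of the 15 alternative fits.

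Receptors for these proteins were all tested, 3 of 10 lower and 5 higher, beside 25.7% lower and 25.5% higher of all tested genes. Their median log2 fold change was 0.18. With library size alone it was 0.34, where all genes were at 0.17. On log2(FPKM + 1) values it was 0.15, close to the 0.13 of all genes. *Itga3*, the laminin-binding integrin α3, had 22.3, 22.5 and 22.3 CPM in GFP and 44.5, 52.0 and 44.8 CPM in CRE, a log2 fold change of 1.07 (SE 0.07, edgeR adjusted p of 1.93e-06). *Itga7*, the laminin-binding integrin of muscle, rose from 11.7 ± 0.52 to 20.4 ± 2.76 CPM (0.80, SE 0.11), and *Bcam*, a receptor for laminin α5, from 13.5 ± 1.32 to 18.0 ± 0.82 CPM (0.42, SE 0.09). The collagen receptors *Itga1* and *Ddr1* fell, each at -0.48 on the log2 scale (SE 0.06 and 0.04). The collagen receptor *Itga2* (0.18, SE 0.13) and the laminin receptor *Itga6* (-0.24, SE 0.13), chosen after their values had been seen, did not pass. *Itga6* was -0.08 without GFP replicate 1. *Itga2* ran from 0.08 without CRE replicate 1 to 0.31 without GFP replicate 2, and was higher with library size alone (0.35, edgeR adjusted p of 0.0390), but turned to -0.11 on log2(FPKM + 1) values. *Itgb1*, the β1 chain that pairs with most of the integrin α chains, was at 2331.5 ± 15.9 CPM in GFP and 2105 ± 30.3 CPM in CRE (-0.15, SE 0.04, edgeR adjusted p of 0.00633), and its sign turned under library size alone (0.02).

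Genes for folding, secreting and crosslinking type IV and other collagens were mostly lower. Of 16 genes 15 were tested, 12 were lower and 0 higher, with a median log2 fold change of -0.26, where 25.7% of all tested genes were lower. With library size alone 7 were lower and 1 higher, where 16.2% of all genes were lower and 43.0% higher, and the median was -0.09. *Serpinh1*, the collagen chaperone HSP47, fell from 2546 ± 45.0 to 1592.5 ± 37.4 CPM (SD, n = 3), which is -0.68 on the log2 scale (SE 0.04, edgeR adjusted p of 6.86e-07). The prolyl 4-hydroxylase subunits *P4ha1* and *P4hb* changed by -0.62 (SE 0.04) and -0.49 (SE 0.04). *Pxdn*, the peroxidase that forms the sulfilimine crosslinks of type IV collagen, was at -0.04 (SE 0.05, edgeR adjusted p of 0.526), and turned to 0.12 with library size alone and 0.11 on log2(FPKM + 1) values without passing. *Mia3*, which helps export large cargo such as collagen, had an edgeR adjusted p of 0.981 with TMM scaling and was higher with library size alone (0.16, edgeR adjusted p of 0.00816). Both were chosen after their values had been seen.

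**Figure D5:**
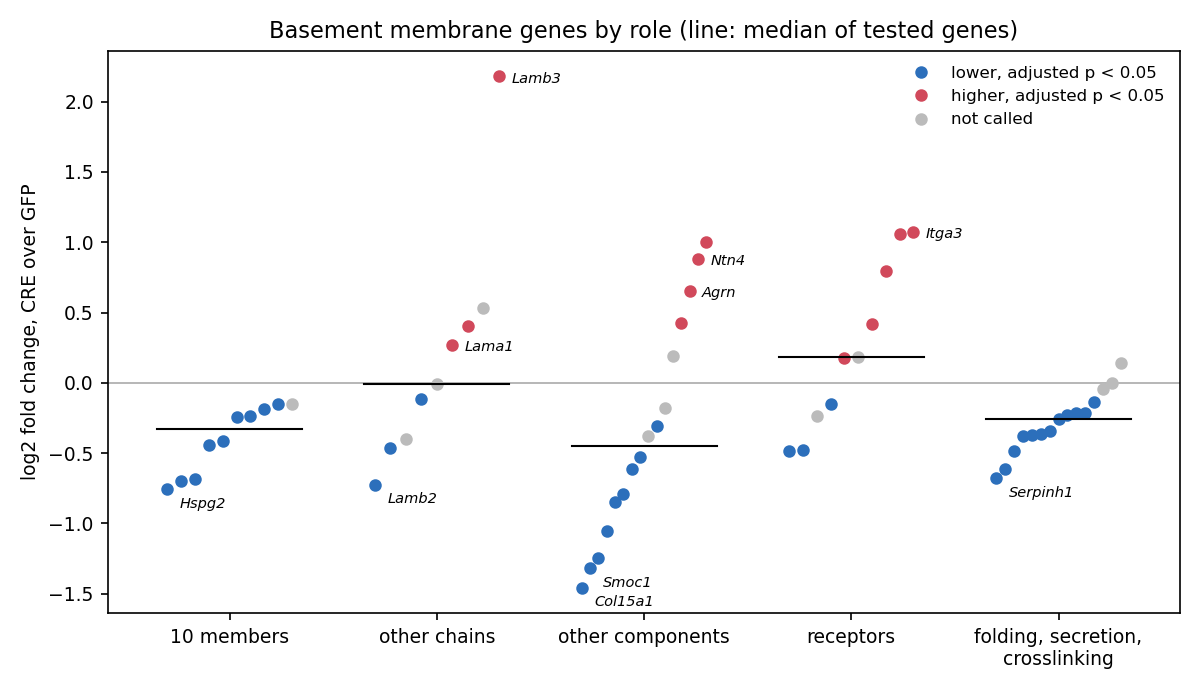
Log2 fold change (CRE over GFP) of every tested gene of the 10 basement membrane genes and of the other chains, other components, receptors, and folding, secretion and crosslinking genes. Blue points were lower and red points higher at an adjusted p under 0.05 (edgeR), grey points did not pass, and black lines are medians. The medians were -0.33, -0.01, -0.45, 0.18 and -0.26 from left to right.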

How the data were processed

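RNA-seq was analysed from 6 libraries, grouped and numbered by their titles. The authors used Trimmomatic for trimming and HISAT2 for alignment to GRCm38 (Ensembl 99), and deposited raw counts per gene from HTSeq-count and FPKM from Cufflinks. Versions and the strand setting are not given in the sources used here. The labels and the methods name different RNA and library kits. The deposited mean FPKM, log2 fold change, p-value and false discovery rate of the authors' own comparison were not used. Counts were tested in R 4.3.3 with edgeR 4.0.16: filterByExpr (minimum count 10, total 15) kept 12862 genes, scaling was by TMM, and the two-sided quasi-likelihood test was adjusted by Benjamini-Hochberg over all of them. SE is the absolute log2 fold change over the square root of F. A count of 0 allows up to 0.186 CPM (3 counts), counting error only. FPKM ratios were compared by exact permutation (scipy 1.17.1). Named genes are the 10 members, *Tet3* and others by a rule. Per list, these are at most 3 in each direction that passed the test without overlap at a mean of 10 CPM or more. Cell type markers and genes said to be chosen after their values had been seen are exceptions. Members and lists were chosen with earlier results of these data known. The values of 1 listed gene are not reported here. Coordinates are from GENCODE M21. Alternatives were RLE, library size alone, upper-quartile scaling, 2 other filters, DESeq2 1.42.0, limma-voom and limma 3.58.1 on log2(FPKM + 1), the replicate block, leaving out each library, and the study's threshold. The test was tested on simulated data. No libraries were duplicates (chi-square over degrees of freedom at least 4.05 within groups).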

Additional observations from a re-analysis of the deposited data

How the results depend on the processing

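The number of lower genes among the 10 fell from 9 to 5 with library size alone and on log2(FPKM + 1) values, and to 3 at the study's threshold. In every fit run, 0 of the 10 were higher. *Lamb1* turned to 0.014 with library size alone and on FPKM values, as did *Col4a5* (0.046 and 0.062) and *Itgb1* (0.015 and 0.018), none of these past the threshold, and *Mia3* turned to 0.16 and 0.26, both past it. For library size alone this follows from the scaling, which moves all genes by 0.16. For FPKM the cause was not tested. Of the collagen folding genes 7 were lower and 1 higher under both of these settings, and 2 were lower at the study's threshold. That threshold left 1 higher and 1 lower other chain, and 3 higher and 0 lower receptors. *Tet3* stayed lower in each fit (-0.78 to -0.55). Deviations of libraries with the same number had correlations of 0.046, 0.18 and -0.018. Those of libraries with unlike numbers ran from -0.12 to 0.071. With 3 libraries a group, these values cannot decide whether the numbers mark pairs. With the replicate block 6633 genes passed in place of 6583, and *Hspg2* (-0.75), *Lama4* (-0.68) and the other called members kept their calls. *Nid2* had a log2 fold change of -0.15 with the block and did not pass (edgeR adjusted p of 0.0549, beside 0.179 without it). With 3 libraries a group, exact tests of ratios cannot go below 0.1.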
